A study of Mus musculus with 6 samples.

Results

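A set of 10 genes of Fc receptor and ITAM signalling were followed in natural killer (NK) cells of mouse spleen: the Fc gamma receptor genes Fcgr2b, Fcgr3 and Fcgr4, the Fc receptor-like gene Fcrl6, the signalling chain genes Fcer1g and Cd247, the kinase genes Syk and Zap70, the adaptor gene Lcp2 and the phospholipase gene Plcg2. They were taken by symbol from the deposited table of counts, and all 10 of them are among its 55291 genes. The NK cells came from mice whose heat shock factor 1 (HSF1) has alanine in place of serine at positions 303 and 307 (S303/7A, libraries 5, 6 and 7) and from mice wild type for HSF1 (WT, libraries 1, 2 and 3), all at steady state. Cells were enriched with DX5 beads and sorted as CD49b+ CD3e- cells, and 1 mouse gave 1 library. The labels give no strain, age, sex or batch, and they do not say how the S303/7A mice were bred or whether the WT mice were littermates.

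Fc receptors bind the constant part of antibodies and let NK cells recognise antibody-coated targets, which they then kill. The activating receptor of mouse NK cells, FcγRIII, has no signalling motif of its own and relies on a chain that carries an ITAM, a tyrosine motif which Src family kinases phosphorylate. Syk and ZAP-70 dock on the phosphorylated motif and pass the signal to the adaptor SLP-76 and to phospholipase C gamma, which raises calcium and starts the release of cytotoxic granules. FcγRIIB, the product of Fcgr2b, carries an inhibitory motif (ITIM) instead, and recruits the phosphatase SHIP, which opposes these steps.

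Of the 9 members that could be tested, 2 differed between the genotypes, in opposite directions. The inhibitory receptor gene Fcgr2b was higher in S303/7A NK cells, at 49.0 ± 7.28 CPM against 15.6 ± 4.66 CPM in WT, and Fcrl6 was lower, at 7.59 ± 1.24 CPM against 25.7 ± 1.87 CPM in WT (SD, n = 3 each). The activating receptor gene Fcgr3, both ITAM chain genes, both kinase genes, Lcp2 and Plcg2 did not pass the test. CPM is a count scaled to a fixed library total with TMM factors, and a gene is described as called where its adjusted p was under 0.05 in edgeR's quasi-likelihood test over all 16480 genes tested. Of those genes 0.364% were called, 0.133% higher and 0.231% lower in S303/7A. In 3 of the 9 tested members (Fcgr2b, Fcrl6 and Fcer1g) the libraries of the genotypes did not overlap, against 16.0% of all tested genes, and the same 3 had an unadjusted p under 0.05, against 9.68% of all tested genes. Set as S303/7A over WT, the median log2 fold was 0.09 over the tested members and 0.01 over all tested genes.

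Total counts ran from 43189163 to 47248039 in S303/7A and from 53845572 to 72736406 in WT, so depth differed with genotype. Summed markers of NK cells, all 12 of them tested, took 26864 to 27834 CPM in S303/7A and 25495 to 29483 CPM in WT. Of these markers edgeR called 1, Klrb1c, which was lower in S303/7A, while limma-voom called 1 and DESeq2 3. There were 4 of the 12 with an unadjusted p under 0.05, against 9.68% of all tested genes. Hsf1 had 67.0, 42.2 and 76.9 CPM in S303/7A 5, 6 and 7 and 83.2, 104 and 108 CPM in WT 1, 2 and 3, and was not called. The mutations change single codons, so this level does not check the labels. S303/7A 6 lay with the WT libraries for some genes that differed in the other S303/7A libraries. H2-Q4, for example, had 73.5, 15.5 and 71.7 CPM in S303/7A 5, 6 and 7 and 15.3 to 16.9 CPM in WT, and was chosen after its values were seen. Results are therefore also given without S303/7A 6.

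**Figure D1:**
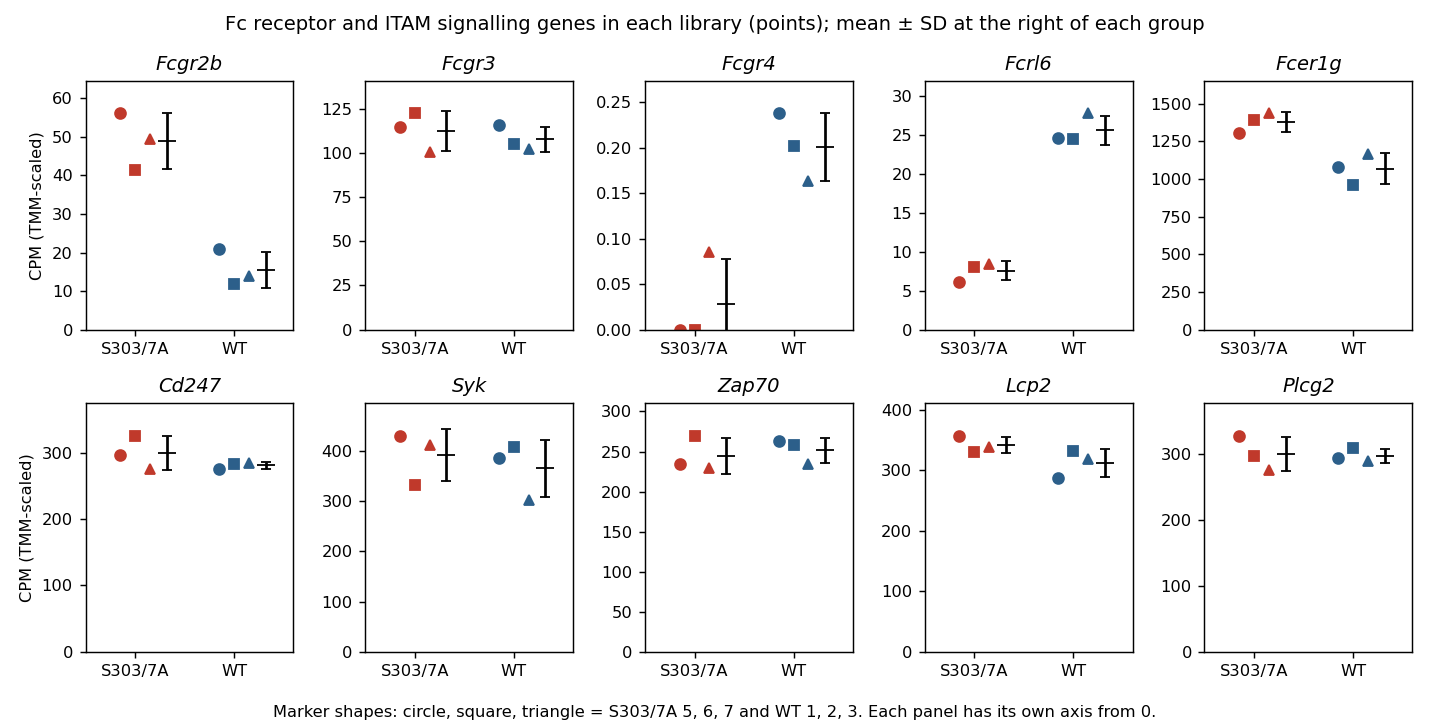
Level of each member in CPM (y axis, from 0, a separate scale per panel) in the 3 S303/7A and the 3 WT libraries; points are libraries and bars the mean ± SD. The points of Fcgr2b, Fcrl6 and Fcer1g separate by genotype without overlap, as do the near-zero points of Fcgr4, while those of the other 6 members overlap.

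Fcgr2b and Fcgr3 are close paralogs, so reads from the coding sequence they share can fit either gene. Their coding sequences align over 509 bases with 96.46% identity, including an identical run of 129 bases. The 200 coding bases around that run are shown because they hold the longest identical run of the alignment. Capitals mark the 5 bases at which the genes differ, read from the GENCODE annotation of GRCm38, minus strand, with the intron between the exons left out. The Fcgr2b stretch lies in exons 5 and 6 (chr1:170966639-170968117) and the Fcgr3 stretch in exons 3 and 4 (chr1:171054132-171057828).
Fcgr2b: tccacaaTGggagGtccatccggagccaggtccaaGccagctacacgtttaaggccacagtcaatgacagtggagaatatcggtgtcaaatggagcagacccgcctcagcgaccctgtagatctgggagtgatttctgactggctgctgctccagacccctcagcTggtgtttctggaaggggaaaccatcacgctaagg
Fcgr3: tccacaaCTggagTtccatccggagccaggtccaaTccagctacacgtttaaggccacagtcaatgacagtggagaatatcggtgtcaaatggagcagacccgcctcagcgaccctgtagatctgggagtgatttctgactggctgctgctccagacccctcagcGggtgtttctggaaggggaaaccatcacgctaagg
Over all annotated transcripts, 6.95% of the 50-base words of Fcgr2b and 9.58% of those of Fcgr3 also occur in another gene. How the counting treated such reads is not given in the sources used here.

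Fcgr2b (chromosome 1, 170958617 to 170976547, minus strand, GRCm38) had 56.1, 41.5 and 49.5 CPM in S303/7A 5, 6 and 7 and 20.8, 11.9 and 14.0 CPM in WT 1, 2 and 3. The lowest S303/7A library was above the highest WT library. The log2 fold was 1.65 ± 0.22 (SE), with a 95% interval from 1.13 to 2.18 and an adjusted p of 0.0470 by edgeR, a rise to 3.15 times the WT level. Leaving out 1 library kept the log2 fold between 1.48 and 1.92, but the call was made only without WT 1 (adjusted p 0.0377) and lost without WT 2 (0.200), WT 3 (0.158), S303/7A 5 (0.200), S303/7A 6 (0.0791) or S303/7A 7 (0.116). After thinning all libraries to 43189163 counts the call was made in 7 of 10 added draws, with adjusted p from 0.0390 to 0.0547. All of these fits gave a higher level in S303/7A, and its side of the threshold depended on single libraries.

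Fcgr3 (chromosome 1, 171051174 to 171064935) encodes FcγRIII, the activating receptor through which mouse NK cells see antibody. It had 115, 122 and 100 CPM in S303/7A 5, 6 and 7 and 116, 105 and 102 CPM in WT 1, 2 and 3, and the groups overlapped. Its log2 fold was 0.06 ± 0.10 (SE), with an interval from -0.17 to 0.29 and an adjusted p of 0.914. Changes within that interval are not excluded by these 3 libraries per genotype.

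Transcripts of the inhibitory receptor gene Fcgr2b were also set against those of the activating low-affinity receptor gene Fcgr3 within each library. Fcgr3 differed little between the genotypes (log2 fold 0.06), so this ratio largely repeats the Fcgr2b difference and is no separate support for it. The log2 ratio of Fcgr2b to Fcgr3 counts was -1.04, -1.56 and -1.02 in S303/7A 5, 6 and 7 and -2.47, -3.14 and -2.87 in WT 1, 2 and 3. The groups did not overlap, and the means differed by 1.62, with p = 0.1 in a two-sided exact permutation test, the smallest p that 3 against 3 libraries can give (0.15 adjusted over 3 ratios). Fcgr2b took 32.8%, 25.4% and 33.0% of the summed counts of both genes in S303/7A 5, 6 and 7, against 15.3%, 10.2% and 12.0% in WT 1, 2 and 3. The exact 95% interval was 24.3% to 26.4% for the lowest S303/7A share and 14.5% to 16.0% for the highest WT share, covering counting error only. Without S303/7A 6 the difference in the log2 ratio was 1.80. This ratio is taken within a library and does not depend on scaling between libraries. The sum of both genes was 171, 164 and 150 CPM in S303/7A 5, 6 and 7 and 137, 117 and 116 CPM in WT 1, 2 and 3, without overlap. A read assigned to the wrong one of them does not change this sum, but shared reads left out of the counting would. It also contains Fcgr2b itself and is no separate support for the difference in that gene.

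**Figure D2:**
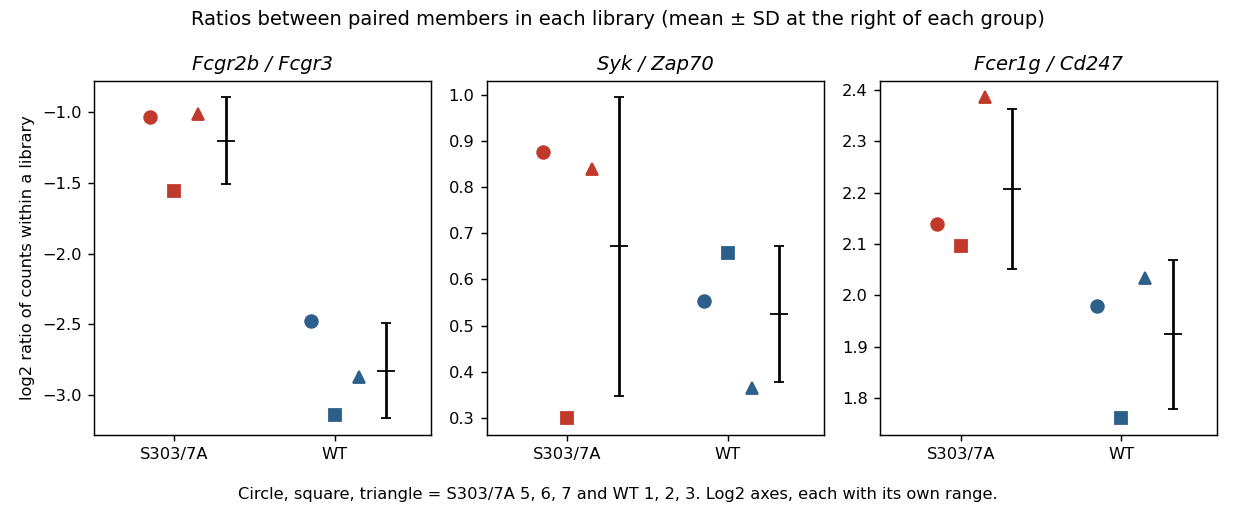
Log2 ratio of counts within each library (y axis, a separate range per panel) for Fcgr2b to Fcgr3, Syk to Zap70 and Fcer1g to Cd247; points are S303/7A 5, 6 and 7 and WT 1, 2 and 3, and bars the mean ± SD. The ratio of Fcgr2b to Fcgr3 lies between -1.56 and -1.02 in S303/7A and between -3.14 and -2.47 in WT, while the ratios of Syk to Zap70 overlap.

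Fcgr2b is also expressed by B cells and by myeloid cells, so the markers of those cells were read beside it. The 12 B cell markers summed to 509, 530 and 676 CPM in S303/7A 5, 6 and 7 and to 580, 687 and 333 CPM in WT 1, 2 and 3. Most of each sum came from Ighm, which had 464, 485 and 581 CPM in S303/7A 5, 6 and 7 and 531, 569 and 311 CPM in WT 1, 2 and 3. The sums overlapped, and 0 of the 12 markers were called by edgeR, DESeq2 or limma-voom, with 0 at an unadjusted p under 0.05. The 12 monocyte and macrophage markers summed to 88.3 to 105 CPM in S303/7A and to 85.9 to 122 CPM in WT, and 0 of the 10 tested were called by the same 3 tools, with 1 at an unadjusted p under 0.05. One of them, the high-affinity receptor gene Fcgr1, had 4 counts in all 6 libraries together. The dendritic cell list summed to 1018 to 1361 CPM in S303/7A and to 1758 to 1959 CPM in WT, without overlap. Most of it came from Irf8 and Itgax, which NK cells also express. Clec9a was at or near 0, while Zbtb46 had 5.40 to 16.7 CPM and Bst2 21.4 to 27.9 CPM over all libraries. Of its 10 tested markers edgeR and limma-voom called 0 and DESeq2 1, and edgeR called 1 without S303/7A 6. The part of these cells in the Fcgr2b level was not tested. In such bulk samples fewer cells of a type and less RNA per cell cannot be told apart.

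The tested transcripts nearest to Fcgr2b, Gm38204 and Gm10522, had higher mean levels in S303/7A, while genes further off did not all follow. Log2 folds were -0.13 ± 0.72 (SE) for Fcrla, -0.06 ± 0.31 for Gm2962 and 2.32 ± 1.48 for Fcrlb. They were 0.04 ± 0.23 for Dusp12 and 0.06 ± 0.10 for Fcgr3, and none of these genes was called. Gm38204, whose exons overlap 2.68% of the exonic bases of Fcgr2b on the opposite strand, was at 5.64 ± 1.22 CPM in S303/7A and 0.414 ± 0.593 CPM in WT (SD, n = 3 each). Gm10522, 5.40 kb from Fcgr2b, was at 29.6 ± 5.43 CPM in S303/7A and 4.54 ± 3.03 CPM in WT. Neither was called (adjusted p 0.337 and 0.105 by edgeR), and both were chosen after their values were seen. The strand setting of the counting is not given in the sources used here, so reads of Fcgr2b and of Gm38204 cannot be told apart in the stretch they share.

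Fcgr4 (chromosome 1, 171018920 to 171029761) encodes FcγRIV, an activating receptor of monocytes, macrophages and neutrophils. It had 0, 0 and 4 counts in S303/7A 5, 6 and 7 and 15, 11 and 12 counts in WT 1, 2 and 3, and did not pass the filter on low counts. A count of 0 allows up to 0.0700 and 0.0696 CPM in S303/7A 5 and 6. Summed over libraries and set against their totals, the S303/7A level was 0.152 of the WT level, with an exact 95% interval from 0.0393 to 0.421 that covers counting error only. Without the filter its adjusted p was 0.741, and 0.701 in DESeq2, so it was not called. Neutrophil markers summed to 32.8 to 39.2 CPM in S303/7A and 51.7 to 89.0 CPM in WT, most of it from Cxcr2. Ly6g was at or near 0, while Mpo had 2.73, 2.64 and 4.41 CPM in S303/7A 5, 6 and 7 and 1.93, 21.7 and 10.8 CPM in WT 1, 2 and 3. Of the 6 tested, edgeR and limma-voom called 0 and DESeq2 1. Their median log2 fold was -0.99, with 2 of the 6 above 0, and 2 had an unadjusted p under 0.05 (9.68% of all tested genes did). The part of neutrophils in the few Fcgr4 counts was not tested.

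Fcrl6 (chromosome 1, 172596642 to 172602551, minus strand) belongs to the Fc receptor-like family, which resembles Fc receptors in sequence. In human, FCRL6 is found on cytotoxic lymphocytes, binds MHC class II and carries an ITIM. It had 6.18, 8.09 and 8.50 CPM in S303/7A 5, 6 and 7 and 24.7, 24.5 and 27.8 CPM in WT 1, 2 and 3. All S303/7A libraries lay below all WT libraries, and the spread within either genotype was small beside the gap. The log2 fold was -1.76 ± 0.16 (SE), with a 95% interval from -2.14 to -1.37 and an adjusted p of 0.0124 by edgeR. It was called without S303/7A 5 (0.0365), S303/7A 6 (0.0327) or S303/7A 7 (0.0366) and in 10 of 10 thinned draws, but not without WT 1 (0.0525), WT 2 (0.0975) or WT 3 (0.0590), with log2 folds from -1.85 to -1.63 in these 6 fits. Only 0.802% of its 50-base words occur in another gene.

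**Figure D3:**
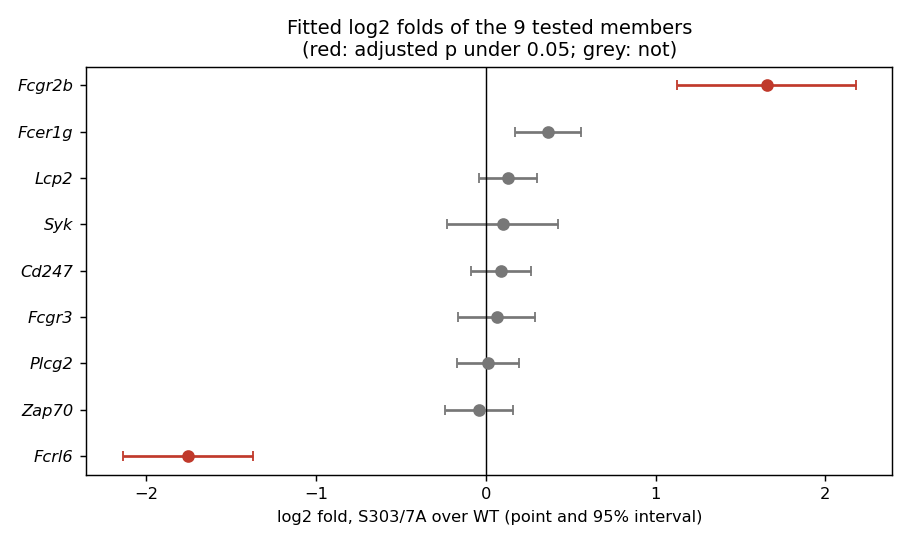
Fitted log2 fold of S303/7A over WT (x axis) for the 9 tested members, as a point with its 95% interval. The interval of Fcgr2b lies between 1.13 and 2.18, that of Fcrl6 between -2.14 and -1.37, and the intervals of the 6 members other than these and Fcer1g include 0.

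HSF1 binds inverted repeats of the unit GAA, so the promoters of both called members were read for its dimer forms, GAANNTTC and TTCNNGAA. The windows run from 250 bases before to 50 bases after the start (RefSeq, GRCm38.p6) and are given because HSF1 is the factor altered in these mice. The Fcgr2b window (chr1:170976022-170976321, minus strand) held neither form and the Fcrl6 window (chr1:172602502-172602801, minus strand) held TTCNNGAA once, in capitals, 38 bases before the start. By the GENCODE positions the Fcgr2b gene begins at 170976547, so its whole window lies inside the annotated gene. The Fcrl6 window spans the GENCODE start of that gene at 172602551, so the windows are not alike.
Fcgr2b: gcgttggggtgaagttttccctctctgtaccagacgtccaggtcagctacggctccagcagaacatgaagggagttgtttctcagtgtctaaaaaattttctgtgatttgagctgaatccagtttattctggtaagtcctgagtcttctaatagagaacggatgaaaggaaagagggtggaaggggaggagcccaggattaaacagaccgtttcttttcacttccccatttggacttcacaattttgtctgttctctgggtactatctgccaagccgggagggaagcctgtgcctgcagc
Fcrl6: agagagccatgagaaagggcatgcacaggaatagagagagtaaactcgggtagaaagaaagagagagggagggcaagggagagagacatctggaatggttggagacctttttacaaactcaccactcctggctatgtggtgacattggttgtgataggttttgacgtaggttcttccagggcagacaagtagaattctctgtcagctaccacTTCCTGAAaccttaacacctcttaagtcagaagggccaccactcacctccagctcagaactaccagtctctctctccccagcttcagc
Each form reads the same on both strands. At least 1 of them was in 15.1% of all 32851 promoter windows of this length and in 5 of the 14 windows of the 10 members, which were windows of Fcgr3, Fcgr4, Fcrl6, Plcg2 and Zap70. The longer forms with 3 units, GAANNTTC followed by NNGAA and TTCNNGAA followed by NNTTC, each hold both dimers and are the reverse complement of one another. They were in 0.31% and 0.32% of all windows and in 0 member windows. A match is a run of letters and no measurement of binding.

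The signalling chains were abundant in both genotypes. Fcer1g (chromosome 1, 171229572 to 171234365) encodes the FcRγ chain, which mouse FcγRIII needs to reach the surface and to signal. It had 1305, 1392 and 1435 CPM in S303/7A 5, 6 and 7 and 1083, 959 and 1166 CPM in WT 1, 2 and 3. The S303/7A libraries were all above the WT libraries, by a small margin relative to the level. The log2 fold was 0.37 ± 0.08 (SE), with an interval from 0.17 to 0.56, an unadjusted p of 0.00274 and an adjusted p of 0.190 by edgeR, so it was not called, nor was it in any of 12 alternatives (adjusted p from 0.0690 to 0.477). Without S303/7A 6 the log2 fold was 0.36. FcRγ also serves basophils and platelets, which share the sorting antigen CD49b. Their markers were lower in S303/7A, at 544 to 644 CPM against 815 to 1250 CPM in WT for basophils and mast cells and 145 to 210 CPM against 311 to 346 CPM in WT for platelets. Of these markers edgeR called 1 of basophils and mast cells, Ms4a2, and 0 of platelets, against 0.364% of all tested genes. DESeq2 called 7 of each, and limma-voom 0. An unadjusted p under 0.05 was found for 9 of 12 tested markers of basophils and mast cells and 9 of 11 of platelets, against 9.68% of all tested genes. The part of these cells in the Fcer1g level was not tested.

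Cd247 (chromosome 1, 165788681 to 165877277) encodes CD3ζ, another ITAM chain that associates with activating receptors of NK cells. It had 296, 326 and 275 CPM in S303/7A 5, 6 and 7 and 275, 283 and 285 CPM in WT 1, 2 and 3, which overlap. The log2 fold was 0.09 ± 0.08 (SE), with an interval from -0.09 to 0.27 and an adjusted p of 0.795. Exons of Pou2f1 on the opposite strand cover 56.4% of the exonic bases of Cd247, so without a known strand setting its count is uncertain. Pou2f1 itself was at 33.1 ± 3.83 CPM in S303/7A and 35.9 ± 3.91 CPM in WT (SD, n = 3 each). The log2 ratio of Fcer1g to Cd247 was 2.14, 2.10 and 2.39 in S303/7A 5, 6 and 7 and 1.98, 1.76 and 2.03 in WT 1, 2 and 3. The groups did not overlap and the means differed by 0.28 (p = 0.1, two-sided exact permutation test, the smallest possible, and 0.15 adjusted over 3 ratios). Because Cd247 differed little between the genotypes, this ratio largely repeats the Fcer1g difference and is no separate support for it.

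The kinases that read the phosphorylated ITAM showed no difference beyond their spread. Syk (chromosome 13), which docks on the motif through paired SH2 domains and phosphorylates adaptors, had 430, 332 and 411 CPM in S303/7A 5, 6 and 7 and 386, 407 and 301 CPM in WT 1, 2 and 3. Zap70 (chromosome 1, 36761798 to 36782818), its relative of T and NK cells, had 234, 270 and 230 CPM in S303/7A 5, 6 and 7 and 263, 258 and 234 CPM in WT 1, 2 and 3. Both overlapped, and S303/7A 6 had the lowest Syk and the highest Zap70 of its genotype. Log2 folds were 0.10 ± 0.14 (SE) for Syk and -0.04 ± 0.09 for Zap70, with intervals from -0.23 to 0.43 and from -0.24 to 0.16 and adjusted p of 0.902 and 0.940 by edgeR. The log2 ratio of Syk to Zap70 averaged 0.67 ± 0.32 in S303/7A and 0.52 ± 0.15 in WT (SD, n = 3 each), a difference of 0.15 with p = 0.6 in the two-sided exact permutation test. Without S303/7A 6 the difference was 0.33.

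Downstream of the kinases, Lcp2 (chromosome 11), which encodes the adaptor SLP-76, had 357, 331 and 338 CPM in S303/7A 5, 6 and 7 and 287, 332 and 318 CPM in WT 1, 2 and 3. Plcg2 (chromosome 8), the phospholipase that makes the second messengers of calcium release, had 328, 297 and 276 CPM in S303/7A 5, 6 and 7 and 294, 310 and 289 CPM in WT 1, 2 and 3. Both overlapped between the genotypes. Log2 folds were 0.13 ± 0.07 (SE) for Lcp2, with an interval from -0.04 to 0.30 and an adjusted p of 0.658, and 0.01 ± 0.08 for Plcg2, with an interval from -0.17 to 0.20 and an adjusted p of 0.980. Over the 7 uncalled members, intervals ran from -0.24 to 0.56 on the log2 scale, so changes of the size seen for Fcgr2b and Fcrl6 lie outside them.

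Per kilobase of exonic sequence the members spanned a wide range, with Fcer1g far above the rest. Its level was 1576 ± 75.7 CPM per kb in S303/7A and 1223 ± 119 in WT (SD, n = 3 each). In S303/7A the mean levels per kb then followed as Zap70 (81.8), Lcp2 (76.7), Plcg2 (70.0), Fcgr3 (64.8), Cd247 (56.1), Syk (41.8), Fcgr2b (8.47) and Fcrl6 (2.83), with neighbours from Zap70 to Cd247 overlapping in their libraries. In WT the order was Zap70 (84.1), Lcp2 (70.1), Plcg2 (69.3), Fcgr3 (62.0), Cd247 (52.7), Syk (39.0), Fcrl6 (9.58) and Fcgr2b (2.69), where only Lcp2 and Plcg2 overlapped as neighbours. Fcgr2b and Fcrl6 thus changed places between the genotypes. Per kilobase of the median coding transcript, an added choice, Fcgr2b was at 32.3 and Fcrl6 at 3.97 CPM per kb in S303/7A, while the same pair overlapped in WT, with Fcgr2b at 10.2 and Fcrl6 at 13.4 CPM per kb, and Cd247 moved up to follow Zap70.

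Fcgr2b, Fcgr4, Fcgr3, Fcer1g and Fcrl6 lie in this order on chromosome 1, with 1.62 Mb between Fcgr2b and Fcrl6. Of the 60 tested genes from Fcgr2b to Fcrl6, both included, 6 (10.0%, against 0.364% of all tested genes) were called, 1 higher and 5 lower. Fcgr2b and Fcrl6 were taken as the ends and are themselves called, so this choice of ends raises that share. The others called were Gm9765, Itln1, Slamf1 and Slamf6. Of the 122 tested genes from 5 Mb before to 5 Mb after, 8 were called. Fcgr3 and Fcer1g sit between called genes and were not called. Within 1 Mb of Fcgr2b the called neighbours were Sh2d1b2, Gm9765, Itln1, Slamf1 and Slamf6, and within 1 Mb of Fcrl6 they were Slamf1 and Slamf6. All of them were lower in S303/7A.

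Slamf6, a receptor of the SLAM family on NK cells, had 36.2, 37.8 and 36.2 CPM in S303/7A 5, 6 and 7 and 93.1, 104 and 72.1 CPM in WT 1, 2 and 3 (log2 fold -1.29 ± 0.14, SE, adjusted p 0.0199, edgeR). Slamf1, of the same family, was at 2.71 ± 0.12 CPM in S303/7A and 11.5 ± 4.34 CPM in WT, and Sh2d1b2, an adaptor gene of that family, at 1.93 ± 0.55 CPM in S303/7A and 7.34 ± 0.64 CPM in WT (SD, n = 3 each), with adjusted p of 0.0470 and 0.0462. Itln1 had 1, 1 and 0 counts in S303/7A 5, 6 and 7 and 1277, 1950 and 2369 counts in WT 1, 2 and 3, and Gm9765 had 0 counts in S303/7A and 59, 91 and 83 counts in WT 1, 2 and 3. Slamf1 and Gm9765 were called in none of the 6 leave-one-out fits, Sh2d1b2 only without S303/7A 5 (0.0483), Slamf6 only without WT 3 (0.0143) and Itln1 in 6. Without S303/7A 6, 1 gene within 1 Mb of Fcgr2b and 0 within 1 Mb of Fcrl6 were called by edgeR, and with all libraries DESeq2 called 10 and 7 such neighbours. With limma-voom Itln1 was not called (adjusted p 0.0767). Cd247, Zap70, Syk, Lcp2 and Plcg2 had 0 neighbours within 1 Mb called by edgeR or limma-voom, while DESeq2 called 1 near Zap70. At an unadjusted p under 0.05, which 9.68% of all tested genes had, there were 19 of 57 tested neighbours of Fcgr2b, 19 of 57 of Fcgr3, 19 of 62 of Fcer1g and 9 of 37 of Fcrl6, windows that overlap one another. There were 1 of 21 of Cd247, 3 of 31 of Zap70, 0 of 10 of Syk, 1 of 8 of Lcp2 and 1 of 12 of Plcg2.

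**Figure D4:**
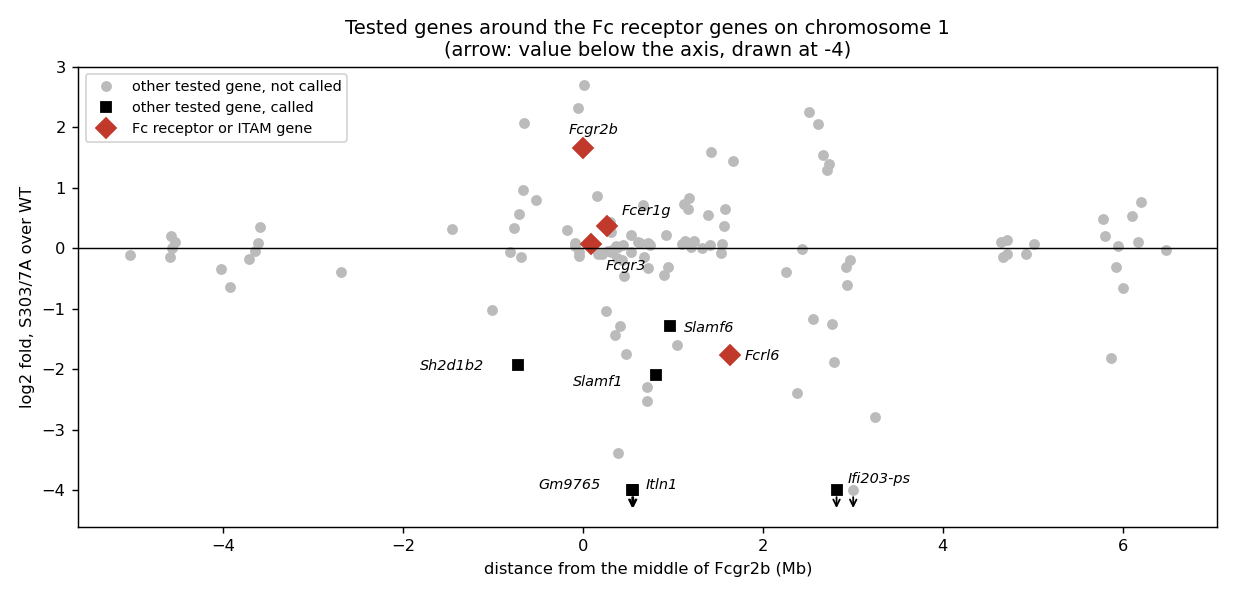
Fitted log2 fold of S303/7A over WT (y axis, values below -4 drawn at -4 with an arrow) of tested genes on chromosome 1 by distance from the middle of Fcgr2b in Mb (x axis). Called genes are squares and members diamonds; the called genes between Fcgr2b and Fcrl6 other than Fcgr2b lie below 0, and Fcgr3 and Fcer1g lie near 0 among them.

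The genes whose profiles over the 6 libraries were most like that of Fcgr2b, among 9962 compared, were Ifi208, Klrc3, Dusp23, Ifi209 and Pik3ip1, with a root mean square difference of centred log2 CPM from 0.20 to 0.29. Ifi208 had 123, 111 and 108 CPM in S303/7A 5, 6 and 7 and 66.6, 33.5 and 40.1 CPM in WT 1, 2 and 3, so WT 1 was the highest WT library for it as it was for Fcgr2b. Ifi208, Dusp23 and Ifi209 are on chromosome 1 too. For Fcrl6 the genes were Klrb1, Ada, Ptger3, Eno1b and Atp6v0a1, with differences from 0.17 to 0.30. Klrb1 had 13.4, 16.1 and 14.9 CPM in S303/7A 5, 6 and 7 and 38.4, 39.4 and 47.1 CPM in WT 1, 2 and 3. These likenesses are descriptions over the same 6 libraries, which share depth and genotype, and carry no test.

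Of 122 other genes in 8 lists of the pathway, 116 were tested, and 3 (2.59%, against 0.364% of all tested genes) were called: 1 higher, Klrb1a, and 2 lower, Klrb1c and Ms4a2. Their median log2 fold was 0.07, against 0.01 over all tested genes, 23 had an unadjusted p under 0.05 (19.8%, against 9.68% of all tested genes), and in 29 the genotypes did not overlap, against 16.0% of all tested genes. Among the other Fc receptors 1 of 10 tested fell and 0 rose. Ms4a2, the beta chain of the IgE receptor, had 37.8, 32.7 and 36.6 CPM in S303/7A 5, 6 and 7 and 57.1, 72.3 and 65.2 CPM in WT 1, 2 and 3, with a log2 fold of -0.86 ± 0.12 (SE) and an adjusted p of 0.0470 by edgeR. It is a gene of basophils and mast cells, the list whose summed level is given above and in which 11 of 12 markers had a log2 fold below 0. Ms4a2 is itself among those 11, as is Fcer1a, so the list is not separate from them. The part of these cells in the fall of Ms4a2 was not tested. Ms4a2 was not called by limma-voom or in any of the 6 fits that left out 1 library (adjusted p from 0.0783 to 0.202). Fcer1a, the alpha chain of that receptor, had 35.5, 19.6 and 37.8 CPM in S303/7A 5, 6 and 7 and 37.9, 41.6 and 42.1 CPM in WT 1, 2 and 3, with an adjusted p of 0.693. Trim21, which encodes a cytosolic antibody receptor, was at 92.9 ± 4.66 CPM in S303/7A and 92.7 ± 8.55 CPM in WT (SD, n = 3 each). Fcmr, the IgM receptor gene of B cells, was at 4.63 ± 3.56 CPM in S303/7A and 6.04 ± 5.97 CPM in WT. Fcgr1, Fcamr and Pigr had 4, 7 and 8 counts in all libraries and were not tested.

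Among the receptors of NK cells that signal through ITAM or related chains, 1 of 12 tested rose and 1 fell. These called genes were 16.7% of the list, against 0.364% of all tested genes. An unadjusted p under 0.05 was found for 6 of the 12 (50%, against 9.68% of all tested genes). Of these 6, Klrk1, Klrd1, Klra8, Klrb1c and Klrb1a lie close together on chromosome 6, from 128609227 to 130129898. Klrh1, the remaining gene, had 0.068 to 0.65 CPM over all libraries and no position in the annotation. The shares of this list therefore do not count separate loci, and sequence shared among these related genes was not examined. Klrb1c, which encodes the NK1.1 antigen and uses FcRγ, had 1640, 1755 and 1676 CPM in S303/7A 5, 6 and 7 and 2256, 2469 and 2663 CPM in WT 1, 2 and 3. Its log2 fold was -0.54 ± 0.07 (SE), with an adjusted p of 0.0454 by edgeR. Klrb1a, another receptor gene of that family, had 276, 275 and 264 CPM in S303/7A 5, 6 and 7 and 164, 154 and 184 CPM in WT 1, 2 and 3, with a log2 fold of 0.70 ± 0.08 and an adjusted p of 0.0253. Neither pair of groups overlapped. Of the 6 fits that left out 1 library, Klrb1c was called only without WT 1 (adjusted p from 0.0461 to 0.183) and Klrb1a only without WT 3 (0.0334 to 0.117). Ncr1, the gene of NKp46, which also uses these chains, had a log2 fold of 0.14 ± 0.06 and an adjusted p of 0.518. Klrk1, the NKG2D gene, averaged 2119 ± 236 CPM in S303/7A and 1432 ± 66.2 CPM in WT (SD, n = 3 each) with an adjusted p of 0.0700, and Klrd1, the CD94 gene, 861 ± 124 CPM in S303/7A and 1099 ± 97.0 CPM in WT with an adjusted p of 0.374. Without S303/7A 6, Klrk1 (0.0144) and Klra8 (0.0365) were called and Klrb1a and Klrb1c were not. Klra8, named after its values were seen, had 148, 75.4 and 163 CPM in S303/7A 5, 6 and 7 and 76.2 to 89.8 CPM in WT.

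**Figure D5:**
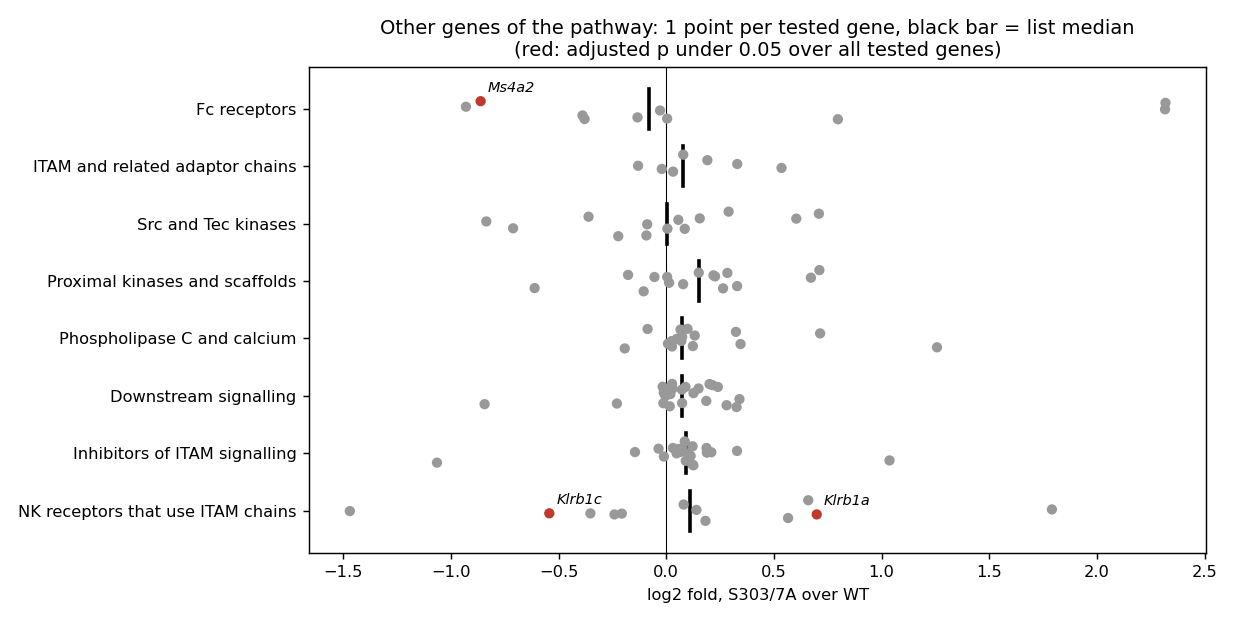
Fitted log2 fold of S303/7A over WT (x axis) of 116 tested pathway genes other than the members, in 8 lists (rows); each point is a gene, red where called, and the bar is the list's median. List medians lie between -0.08 and 0.15, and the 3 called genes are Ms4a2, Klrb1c and Klrb1a.

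In the other 6 lists edgeR called 0 genes, with list medians from 0.01 to 0.15 on the log2 scale. DESeq2 called Nck1, Inppl1 and Dok3 there, and limma-voom called 0. Of the 7 other ITAM and related chains 0 had an unadjusted p under 0.05. Tyrobp, the gene of DAP12, was at 2296 ± 87.1 CPM in S303/7A and 2329 ± 247 CPM in WT, and Hcst, the gene of DAP10, at 198 ± 14.4 CPM in S303/7A and 217 ± 20.0 CPM in WT (SD, n = 3 each). The CD3 chain gene Cd3g was at 37.5 ± 10.2 CPM in S303/7A and 32.8 ± 12.5 CPM in WT. Among 13 Src and Tec kinases 2 had an unadjusted p under 0.05 (15.4%, against 9.68% of all tested genes). Lck, an NK cell kinase that phosphorylates ITAMs, was at 1721 ± 71.6 CPM in S303/7A and 1655 ± 82.8 CPM in WT, with an adjusted p of 0.857, and Txk had a log2 fold of -0.09 ± 0.06 (SE).

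Among 15 proximal adaptors and scaffolds 6 had an unadjusted p under 0.05 (40.0%, against 9.68% of all tested genes) and the median log2 fold was 0.15. Vav1, the exchange factor that acts beside SLP-76, was at 474 ± 20.9 CPM in S303/7A and 427 ± 12.5 CPM in WT (log2 fold 0.15 ± 0.06, SE, adjusted p 0.485, edgeR). Skap1 was at 502 ± 11.4 CPM in S303/7A and 431 ± 25.4 CPM in WT (0.22 ± 0.06, adjusted p 0.320), and Sh2d2a had a log2 fold of 0.01 ± 0.05. The libraries of Vav1 and Skap1 did not overlap. Nck1, an adaptor that binds SLP-76, had 182, 182 and 169 CPM in S303/7A 5, 6 and 7 and 91.1, 142 and 102 CPM in WT 1, 2 and 3, with an adjusted p of 0.215. It was called in DESeq2 (0.00505) and without the low-count filter (0.0461) and is named for that after its values were seen.

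Of 16 genes of phospholipase C and calcium 2 (12.5%) had an unadjusted p under 0.05, of 23 downstream genes 2 (8.70%) and of 21 tested inhibitors 3 (14.3%). Over all tested genes this share was 9.68%. Log2 folds were -0.09 ± 0.16 (SE) for Nfatc1 and 0.07 ± 0.08 for Nfatc3, which encode calcium-dependent transcription factors. They were 0.02 ± 0.05 for Rac2, a small GTPase of the cytoskeleton, 0.07 ± 0.05 for Arpc1b, an actin nucleation subunit, and 0.03 ± 0.07 for Pik3cd, the catalytic subunit of phosphoinositide 3-kinase delta. Among inhibitors they were -0.01 ± 0.06 for Ptprc, the CD45 gene, 0.05 ± 0.07 for Dok2 and 0.10 ± 0.06 for Sla. The adjusted p of these 8 genes ranged from 0.660 to 0.979 by edgeR. Inpp5d, which encodes the SHIP phosphatase recruited by FcγRIIB and is named for that role, was at 465 CPM in S303/7A and 455 CPM in WT on average, with a log2 fold of 0.03 ± 0.08 and an adjusted p of 0.954. Inppl1, the gene of the related phosphatase, had 52.8, 16.8 and 39.0 CPM in S303/7A 5, 6 and 7 and 16.5 to 19.4 CPM in WT, with S303/7A 6 among the WT libraries. It was called by DESeq2 (adjusted p 0.0377) and not by edgeR (0.432). Dok3, an inhibitory adaptor gene, had 7.91, 7.79 and 13.4 CPM in S303/7A 5, 6 and 7 and 16.5, 30.0 and 14.5 CPM in WT 1, 2 and 3, without overlap, with an adjusted p of 0.0248 by DESeq2 and 0.371 by edgeR. Both are named for the DESeq2 call, after their values were seen.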

How the data were processed

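Bulk RNA-seq libraries of splenic NK cells (SMART-seq HT kit, per the labels' protocols) from 3 S303/7A and 3 WT mice were analysed. The tools were featureCounts, STAR, Trimmomatic and DESeq2 on GRCm38 (mm10), according to the submitters' processing notes; the sources used here give no versions, annotation release or strand setting. Raw counts per gene, as deposited by the authors, were the only values used, and their normalized table was not. Totals were 43189163, 43676820 and 47248039 counts in S303/7A 5, 6 and 7 and 62667303, 53845572 and 72736406 in WT 1, 2 and 3.

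In R 4.3.3 with edgeR 4.0.16, filterByExpr (minimum count 10, minimum total 15) kept 16480 genes. TMM factors, the quasi-likelihood test (not robust) and Benjamini-Hochberg adjustment over all genes tested (threshold 0.05) followed. Standard errors are Wald-type, and intervals are 95% by the t distribution of the fit. Ratios between members used a pseudocount of 0.5 and exact permutation tests. Alternatives were median-of-ratios factors, library totals, DESeq2 1.42.0, limma-voom (limma 3.58.1), no filter, thinned counts and leaving out each library. Positions and lengths are from GENCODE for GRCm38 and promoters from RefSeq (GRCm38.p6, all 10 members matched).

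Members, lists and tests were chosen with earlier results of these data known. Named are all members, called pathway genes, up to 3 further genes per pathway list by mean CPM (2 of them are not reported here), called genes within 1 Mb of a called member, and for each called member the 5 genes of mean log2 CPM of at least 2 with the nearest profile; others were chosen after their values were seen. On simulated counts of these libraries, with changed genes drawn at a mean of 1 CPM or more, the test called 7 of 50 genes changed 1.5-fold, 21 of 50 changed 2-fold, 41 of 50 changed 4-fold and 50 of 50 changed 8-fold, and 4 unchanged genes, among 15896 tested. Each library is 1 mouse, per the labels, and counting intervals cover counting error only.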

Additional observations from a re-analysis of the deposited data

How the results depend on the processing

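No paired analysis was possible because the genotypes share no replicate number. Across all genes 60 were called, and 431 in DESeq2, 171 without the low-count filter, 38 with limma-voom, and from 5 to 57 when 1 library was left out (5 without WT 2). Of 2 called members, 2 were called with median-of-ratios factors, library totals, DESeq2, limma-voom, no filter and 1 thinned draw. In 10 added thinned draws Fcrl6 was called in 10 and Fcgr2b in 7. With 1 library left out, from 0 to 1 of these members were called. Of the other pathway genes 3 were called, 7 in DESeq2 (adding Dok3, Inppl1, Klrk1 and Nck1), 5 without the filter (adding Klrk1 and Nck1) and from 0 to 2 when 1 library was left out. No scaling moved the median log2 fold of all genes by more than 0.03.

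Small uncalled folds changed sign. With library totals log2 folds were -0.015 for Plcg2, -0.024 for Trim21, -0.015 for Sh2d2a, -0.013 for Rac2 and -0.0010 for Pik3cd. Without the filter Trim21 was at -0.0052, and with limma-voom Fcmr was at 0.35. With 1 library left out, log2 folds ranged from -0.0017 to 0.14 for Fcgr3, -0.020 to 0.21 for Syk, -0.055 to 0.067 for Plcg2, -0.049 to 0.080 for Trim21, -1.23 to 0.70 for Fcmr, -0.073 to 0.070 for Tyrobp, -0.052 to 0.50 for Cd3g, -0.013 to 0.048 for Sh2d2a, -0.24 to 0.016 for Nfatc1, -0.015 to 0.054 for Rac2, -0.024 to 0.054 for Pik3cd and -0.059 to 0.030 for Ptprc. The log2 ratio of Fcgr2b to Fcgr3 differed by 1.47 to 1.80, that of Syk to Zap70 by 0.04 to 0.33 and that of Fcer1g to Cd247 by 0.19 to 0.34. The cause of these changes was not tested. Depth limits Fcgr4, with at most 15 counts in a library.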

Other observations

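S303/7A 7 stood apart from the other 5 libraries for several genes of the signalling lists, none of them called and each picked once its values were known. The Src family kinase gene Fyn had 131, 120 and 312 CPM in S303/7A 5, 6 and 7 and 113 to 136 CPM in WT. The adaptor gene Grb2 had 12.7, 11.7 and 43.1 CPM in S303/7A 5, 6 and 7 and 12.5 to 14.9 CPM in WT. Stim2, a calcium sensor of the endoplasmic reticulum, had 18.8, 17.0 and 114 CPM in S303/7A 5, 6 and 7 and 14.6 to 29.8 CPM in WT, and Orai1, the channel that such sensors open, had 9.21, 6.52 and 34.6 CPM in S303/7A 5, 6 and 7 and 5.66 to 13.4 CPM in WT.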
